A study of Homo sapiens with 12 samples.

Results

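The RNAs described here are antisense RNAs, genes named for lying on the strand opposite another gene, whose name precedes the ending AS and a digit. All genes with such a symbol were taken whose highest group mean intensity was at least 20, with 1 probe set per gene. This left 220 of 475 measured antisense RNAs, among 14582 genes measured and 10244 past the same level. The members were thus chosen by their measured intensity, so the level of a member is a description. Of the 220, 122 reached the level in all 4 treatment groups, 61 in 3, 21 in 2 and 16 in only 1. The 13 that passed through the entinostat group alone, the 2 through DT alone and the 1 through DMSO alone had to be higher there. Just inside the threshold were IGFBP7-AS1 (highest group mean 20.4), SH3RF3-AS1 (20.4) and LDLRAD4-AS1 (20.5), and just outside it USP2-AS1 (19.95), ENTPD1-AS1 (19.9) and ZNF205-AS1 (19.8).

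The cells were SK-MEL-2, an established human melanoma line with mutant NRAS, measured on 12 Affymetrix arrays after 24 hours of treatment. Each of 4 groups held 3 arrays. The controls received the vehicle, DMSO. DT stands for cells given 100 nM dabrafenib and 10 nM trametinib, E for cells given 1 µM entinostat, and DTE for cells given all 3 agents at these doses. ERCC spike-in RNA had been mixed in ahead of extraction in every group. The replicates are biological by their titles but technical by the description of the series. A p-value here therefore covers the variation among 12 arrays and may be technical, and the number of arrays limits the precision. The melanocyte markers MITF, PMEL, MLANA, TYR, SOX10 and S100B had mean intensities of 267 to 2542 in DMSO, while TYRP1 was at 20.1. Of 15 markers of other cell types 7 were measured, and KRT5, KRT1, KRT10 and DCN lay at or below 9.96 on every array. For KRT14, a keratinocyte gene, the means of DMSO, DT, E and DTE were 25.6, 41.3, 31.2 and 21.0, and for CD14, a monocyte gene, 29.1, 54.6, 62.8 and 26.9. KRT14 rose in DT and CD14 in DT and in E, VWF lay between 12.2 and 20.8 on all arrays, and the part of these genes in the results was not tested. In RNA from a whole culture, fewer cells of a type and less RNA per cell cannot be told apart.

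Antisense RNAs are long non-coding transcripts. Some start beside the promoter of the partner gene and run away from it, some start inside the gene and run across its start, and some lie far downstream. A few are known to affect the transcription, splicing or stability of their partner, while for most no function is established. Many are short-lived because the nuclear RNA exosome degrades them. Histone acetylation marks active promoters, class I histone deacetylases remove it, and entinostat inhibits enzymes of that class. Dabrafenib inhibits RAF kinases and trametinib inhibits MEK, the kinases above ERK, whose best known nuclear targets are AP-1 and ETS transcription factors.

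The RefSeq promoter table (GRCh38.p14) held 184 of the members. For 161 pairs it held both the antisense RNA and its partner, on opposite strands in each case, with overlapping spans in 129. The nearest starts lay within 1000 bases of each other in 79 pairs, with the antisense start upstream of the partner in 43 and inside it in 36, and farther apart in 82. No source used here says whether the probes keep the strand, and without that, signal from overlapping parts of a gene and its antisense RNA cannot be told apart. Nor is the genome build of the probe sets stated.

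The 8 promoter windows that follow are shown for the members on which the comparisons below turn, chosen after their values were seen. Each runs from 250 bases before the start to 50 after it, 5′ to 3′ on the strand of the antisense RNA. Capitals mark every match, on either strand, to 1 of 7 motifs. The cyclic AMP response element, CRE, was searched as TGACGTCA and the AP-1 element as TGANTCA. For the GC box bound by SP1 the letters were GGGCGG. The ETS element, a target of ERK signalling, was searched as CCGGAAG. For the E-box, which MITF and MYC bind, the letters were CACGTG. The CCAAT box was searched by the letters of its name. For the TATA box the letters were TATAAA. A match describes letters only, not a binding site. The first 4 RNAs rose with entinostat in both settings tested, PRR7-AS1 and FBXL19-AS1 fell with it, VLDLR-AS1 rose with dabrafenib plus trametinib, and ZEB2-AS1 became a member through its level there.
PTPRG-AS1: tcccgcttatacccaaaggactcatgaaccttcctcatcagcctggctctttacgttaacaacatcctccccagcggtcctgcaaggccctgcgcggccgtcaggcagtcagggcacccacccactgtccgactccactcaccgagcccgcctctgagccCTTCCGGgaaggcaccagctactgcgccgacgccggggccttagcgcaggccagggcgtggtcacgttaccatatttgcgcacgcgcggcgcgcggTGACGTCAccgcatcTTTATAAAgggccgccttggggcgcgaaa
ATP2B1-AS1: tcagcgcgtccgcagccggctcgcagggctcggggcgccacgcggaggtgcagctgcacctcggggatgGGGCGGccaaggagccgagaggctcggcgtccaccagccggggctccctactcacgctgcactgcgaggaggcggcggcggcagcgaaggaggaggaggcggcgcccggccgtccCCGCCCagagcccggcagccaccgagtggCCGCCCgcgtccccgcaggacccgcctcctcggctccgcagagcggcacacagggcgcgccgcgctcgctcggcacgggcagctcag
CBR3-AS1: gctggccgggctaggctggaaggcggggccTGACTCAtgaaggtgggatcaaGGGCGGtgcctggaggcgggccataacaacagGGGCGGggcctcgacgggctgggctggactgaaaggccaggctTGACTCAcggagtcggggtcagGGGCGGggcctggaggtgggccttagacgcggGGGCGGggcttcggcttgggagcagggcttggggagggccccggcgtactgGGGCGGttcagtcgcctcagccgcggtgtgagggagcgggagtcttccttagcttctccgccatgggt
KCNJ2-AS1: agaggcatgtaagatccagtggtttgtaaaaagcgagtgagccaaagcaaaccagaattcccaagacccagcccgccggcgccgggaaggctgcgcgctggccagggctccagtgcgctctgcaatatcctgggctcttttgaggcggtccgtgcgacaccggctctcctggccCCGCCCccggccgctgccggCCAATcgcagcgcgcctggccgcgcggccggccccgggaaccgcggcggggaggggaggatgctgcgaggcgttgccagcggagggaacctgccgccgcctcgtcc
PRR7-AS1: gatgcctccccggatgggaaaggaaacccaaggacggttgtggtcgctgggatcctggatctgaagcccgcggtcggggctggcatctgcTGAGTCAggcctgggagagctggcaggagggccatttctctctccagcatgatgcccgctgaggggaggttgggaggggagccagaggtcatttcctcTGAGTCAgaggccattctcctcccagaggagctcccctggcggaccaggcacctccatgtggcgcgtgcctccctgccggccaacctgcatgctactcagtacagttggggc
FBXL19-AS1: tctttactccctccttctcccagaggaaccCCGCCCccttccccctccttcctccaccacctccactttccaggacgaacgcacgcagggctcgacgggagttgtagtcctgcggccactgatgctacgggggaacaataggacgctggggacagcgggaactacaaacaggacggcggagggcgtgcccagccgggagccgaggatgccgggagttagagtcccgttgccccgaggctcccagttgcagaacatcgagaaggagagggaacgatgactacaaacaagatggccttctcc
VLDLR-AS1: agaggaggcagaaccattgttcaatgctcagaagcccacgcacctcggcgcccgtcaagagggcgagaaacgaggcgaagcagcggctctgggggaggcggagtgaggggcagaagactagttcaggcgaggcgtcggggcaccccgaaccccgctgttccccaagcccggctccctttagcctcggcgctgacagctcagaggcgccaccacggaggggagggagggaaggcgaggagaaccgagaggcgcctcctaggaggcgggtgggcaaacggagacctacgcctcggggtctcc
ZEB2-AS1: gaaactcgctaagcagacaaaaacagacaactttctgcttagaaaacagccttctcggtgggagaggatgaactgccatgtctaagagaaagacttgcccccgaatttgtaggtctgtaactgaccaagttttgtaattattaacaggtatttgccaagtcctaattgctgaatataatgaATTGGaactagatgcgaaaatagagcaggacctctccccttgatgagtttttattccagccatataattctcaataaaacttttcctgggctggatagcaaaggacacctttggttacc

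The PTPRG-AS1 window (chr3:62318898-62319197, minus strand) held an ETS match and, after the start, a CRE match and 2 overlapping TATA matches. The ATP2B1-AS1 window (chr12:89708705-89709004, plus strand) held 3 GC boxes and 43 CpG dinucleotides. The CBR3-AS1 window (chr21:36156259-36156558, minus strand) held 5 GC boxes and 2 AP-1 matches, and the KCNJ2-AS1 window (chr17:70169353-70169652, minus strand) 1 GC box and 1 CCAAT box. The PRR7-AS1 window (chr5:177447895-177448194, minus strand) held 2 AP-1 matches, and the FBXL19-AS1 window (chr16:30923220-30923519, minus strand) 1 GC box. The VLDLR-AS1 window (chr9:2622324-2622623, minus strand) held none of these letters. The ZEB2-AS1 window (chr2:144519364-144519663, plus strand) held 1 CCAAT box and, at 4 CpG dinucleotides, was the CpG-poorest of the 8.

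Over all 215 windows of members the median CpG count was 23, against 14 over the 35116 windows of the whole table. GC boxes stood in 54.4% of member windows and 45% of all windows, and TATA in 4.65% and 11.5%. For the other motifs the shares were 1.4% and 1.85% for CRE, 6.05% and 7.71% for AP-1, 11.6% and 10.3% for ETS, 9.3% and 7.26% for the E-box, and 32.6% and 34.6% for the CCAAT box. Windows of 1 gene overlap in part, so these shares are descriptions.

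The arrays differed in overall level, and the members moved with it. The geometric mean intensity over the 220 members was 37.1 to 44.9 on the DMSO arrays, 37.3 to 40.3 on DT, 39.5 to 50.2 on E and 25 to 27.1 on DTE. The median log2 difference over all genes was -0.12 in DT vs DMSO, 0.14 in E vs DMSO, -0.54 in DTE vs DMSO, -0.41 in DTE vs DT and -0.82 in DTE vs E. Differences are therefore given as deposited, on the log2 scale with their standard error (SE), followed by the same difference on quantile-normalized arrays, called the quantile value. A gene is called where the adjusted p of limma, Benjamini-Hochberg over all genes of the comparison, is under 0.05, and the text leads with calls that both scalings give. In comparisons of 2 groups the leading RNAs were picked among called members whose arrays did not overlap, so their lack of overlap is a description. A level under 11.1 to 16.1, depending on the array, was taken as not well above background.

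Dabrafenib plus trametinib raised some antisense RNAs and lowered others, and which were more numerous turned with the scaling. On deposited values 22 of the 220 members were higher in DT than in DMSO and 43 lower, where 5.7% of the 10244 genes past the same level were called higher and 32.1% lower. After quantile normalization 51 were higher and 23 lower, beside 20.1% and 19.6% of those genes, and the 22 and 23 members called on both scalings made up 10% and 10.5% of the members. Of all genes past the level 5.7% were called higher on both scalings and 19.5% lower. Over all 475 measured antisense RNAs the counts on both scalings were 29 higher and 23 lower. The median difference over the members was -0.11 (quantile value 0.05). Of the 22 higher members 1, ZEB2-AS1, had passed the level through DT alone. Without DMSO replicate 1 or 2, the count of lower members on deposited values was 26.

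VLDLR-AS1, antisense to the very low density lipoprotein receptor, had intensities of 22.8, 30.8 and 20.3 in DMSO and 93.0, 82.2 and 84.9 in DT. The groups lay far apart, and VLDLR-AS1 rose by 1.84 ± 0.15 (SE; limma adjusted p = 2.6e-09; quantile value 1.92). On the E arrays it had 25.6, 22 and 24.3. LPP-AS2, which starts 69 bases upstream of the gene for the focal adhesion protein LPP, went from 252, 265 and 232 in DMSO to 571, 512 and 600 in DT. It rose by 1.17 ± 0.13 (limma adjusted p = 2.5e-07; quantile value 1.53). The lowest DT array, at 512, was above the highest DMSO array, at 265. CCDC18-AS1 had 88.8, 81.8 and 53.5 in DMSO and 155, 139 and 160 in DT, a rise of 1.05 ± 0.17 (limma adjusted p = 4.6e-05; quantile value 1.33). TFAP2A-AS1, antisense to the gene for the neural crest transcription factor AP-2 alpha, went from 20.1, 20.9 and 25.2 to 49.96, 43.7 and 41.7, a rise of 1.04 ± 0.15 (limma adjusted p = 1.2e-05; quantile value 1.11). On the E arrays CCDC18-AS1 had 72.9 to 103 and TFAP2A-AS1 20.4 to 28.9, overlapping their DMSO arrays.

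HM13-AS1 and PAXBP1-AS1 rose in DT and in E alike. HM13-AS1, antisense to the gene for signal peptide peptidase, had 32.4, 30.0 and 40.7 in DMSO, 71.4, 73.6 and 73.4 in DT, and 66.9, 75.5 and 75.5 in E. Its difference was 1.09 ± 0.14 in DT (limma adjusted p = 2.9e-06; quantile value 1.23) and 1.09 ± 0.14 in E (limma adjusted p = 3.4e-06; quantile value 0.74). PAXBP1-AS1 had 17.2, 18.9 and 19.0 in DMSO, 43.4, 34.6 and 36.7 in DT, and 36.9, 38.9 and 40.2 in E. It rose by 1.05 ± 0.14 in DT (limma adjusted p = 2.7e-06; quantile value 1.11) and by 1.07 ± 0.14 in E (limma adjusted p = 2.1e-06; quantile value 0.68). Both comparisons use the same DMSO arrays. The partner genes did not pass the threshold in DT or in E: HM13 had -0.36 and 0.09, and PAXBP1 -0.31 and 0.14. ATP2B1-AS1, DLG5-AS1, FGF14-AS2, HLA-F-AS1, LPP-AS2 and RASSF8-AS1 were likewise called higher in both DT and E on both scalings.

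The largest fall was that of PRR7-AS1, which starts 381 bases upstream of PRR7, a gene for a proline-rich membrane protein. Its intensities were 243, 274 and 185 in DMSO and 62.8, 50.9 and 52.7 in DT, a fall by 2.06 ± 0.16 (limma adjusted p = 1.5e-09; quantile value -1.67). SLCO4A1-AS1, antisense to the gene for an organic anion transporter, went from 99.4, 142 and 95.8 to 29.8, 25.7 and 26.9, and fell by 2.01 ± 0.18 (limma adjusted p = 7.7e-09; quantile value -1.64). In both RNAs the highest DT array was below the lowest DMSO array, as their choice required. AFAP1-AS1 and FOXD2-AS1 are antisense to the genes for an actin filament protein and a forkhead factor. AFAP1-AS1 had 467, 515 and 412 in DMSO and 187, 164 and 217 in DT, a fall by 1.30 ± 0.14 (limma adjusted p = 1.8e-07; quantile value -0.96). FOXD2-AS1 had 176, 181 and 145 in DMSO and 64.6, 63.5 and 63.2 in DT, a fall by 1.39 ± 0.15 (limma adjusted p = 2.2e-07; quantile value -1.01). DCST1-AS1 went from 89.8, 99.3 and 71.0 to 46.6, 32.9 and 29.8 and fell by 1.26 ± 0.18 (limma adjusted p = 8.4e-06; quantile value -0.91). CPB2-AS1 had 26.9, 27.2 and 29.7 in DMSO and 10.3, 8.42 and 8 in DT, not well above background, so it was at least 2.13-fold lower (limma adjusted p = 9.2e-08; at least 2.01-fold after quantile normalization).

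**Figure D1:**
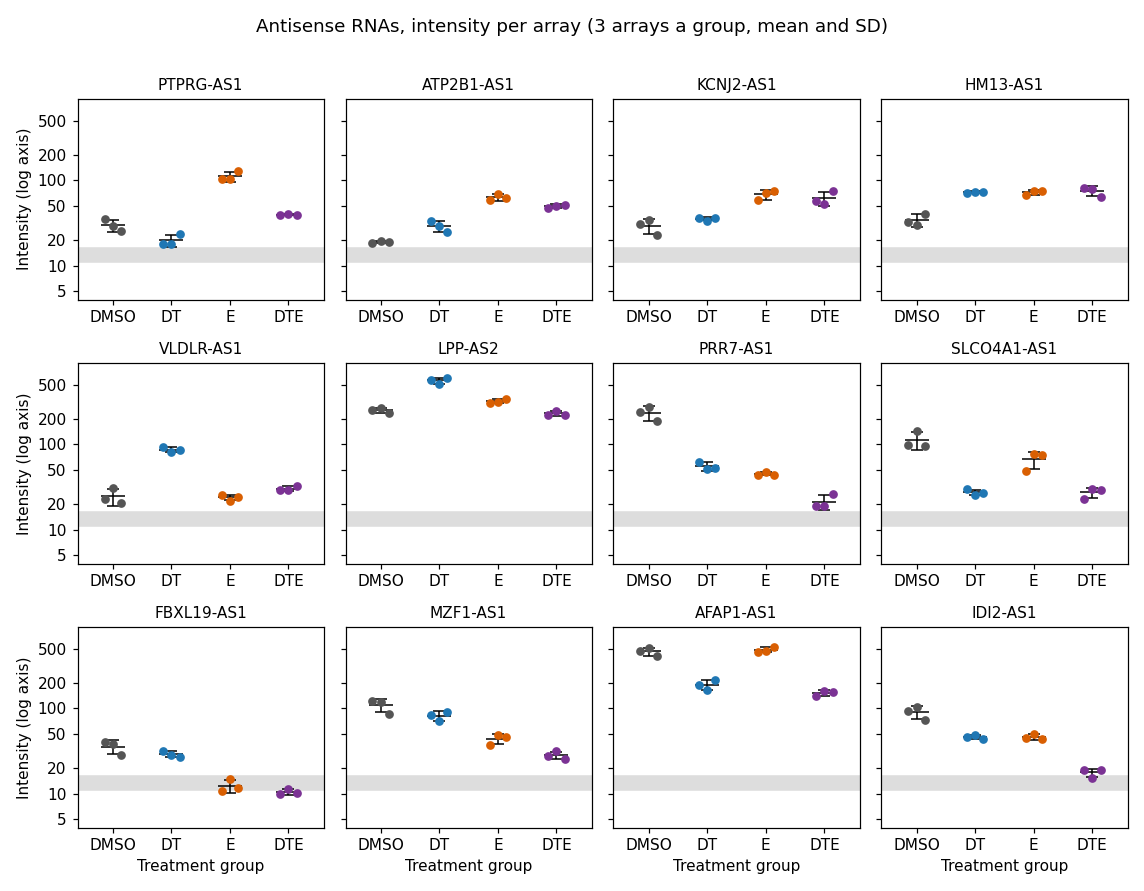
Intensity of 12 antisense RNAs on each of the 12 arrays (log axis), by treatment group; points are arrays, black lines the mean and SD of 3 arrays, and the grey band the range of the background level over the arrays, 11.1 to 16.1. VLDLR-AS1 and LPP-AS2 are highest in DT, PTPRG-AS1 is highest in E, and PRR7-AS1 falls from a mean of 234 in DMSO to 55.5 in DT, 45.2 in E and 21.3 in DTE.

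Entinostat also changed antisense RNAs in both directions. On deposited values 44 members were higher in E than in DMSO and 23 lower, where 25% of all genes past the level were called higher and 6.49% lower. After quantile normalization 26 were higher and 61 lower, beside 19.6% and 21.6%. On both scalings 25 members were higher (11.4%) and 23 lower (10.5%), beside 18.1% and 6.48% of all genes past the level. For some of the 23 lower members the arrays of the 2 groups overlapped, and 2 of the 25 higher ones had passed the level through E alone. Over all 475 measured antisense RNAs these counts were 31 and 25. The median difference over the members was 0.12 (quantile value -0.13). On deposited values the count of higher members was 29 without DMSO replicate 3 and 28 without E replicate 3. The count of lower members was 12 without DMSO replicate 1, 15 without DMSO replicate 2 and 11 without E replicate 1.

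PTPRG-AS1, antisense to the gene for a receptor tyrosine phosphatase, had 34.8, 29.4 and 25.3 in DMSO and 103, 103 and 129 in E. It rose by 1.91 ± 0.15 (limma adjusted p = 1.4e-09; quantile value 1.56), the largest rise of a member. ATP2B1-AS1, which starts 117 bases upstream of a calcium pump gene, went from 18.6, 19.4 and 18.9 to 58.8, 70.1 and 62.0, a rise of 1.74 ± 0.14 (limma adjusted p = 1.2e-09; quantile value 1.31). Neither RNA had an E array within 20 units of a DMSO array. POPDC1-AS1 had 18.5, 18.7 and 14.8 in DMSO and 37.9, 54.5 and 60.7 in E, a rise of 1.54 ± 0.17 (limma adjusted p = 2e-07; quantile value 1.11). CBR3-AS1, antisense to a carbonyl reductase gene, had 27.6, 28.1 and 26.8 in DMSO and 64.1, 80.8 and 83.0 in E, a rise of 1.46 ± 0.15 (limma adjusted p = 6e-08; quantile value 1.08). HLA-F-AS1, antisense to a non-classical class I histocompatibility gene, had 35.5, 33.2 and 19.6 in DMSO and 64.5, 95.1 and 85.7 in E, a rise of 1.5 ± 0.19 (limma adjusted p = 1.4e-06; quantile value 1.15). UPK1A-AS1, antisense to a uroplakin gene, went from 25, 24.0 and 28.5 to 58.3, 59.9 and 72.6, a rise of 1.30 ± 0.14 (limma adjusted p = 1e-07; quantile value 0.90). KCNJ2-AS1, which starts 130 bases upstream of a potassium channel gene, went from 30.5, 34.5 and 23.2 to 58.4, 71.2 and 75.5, a rise of 1.23 ± 0.16 (limma adjusted p = 3.4e-06; quantile value 0.86). In these RNAs, too, no E array reached down to a DMSO array, which for all but KCNJ2-AS1 their choice required.

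PRR7-AS1 fell again, to 44.3, 47.3 and 44.0 in E against 243, 274 and 185 in DMSO, by 2.35 ± 0.16 (limma adjusted p = 1.1e-10; quantile value -2.43). This was the largest change of any member in E. FBXL19-AS1, which starts 214 bases inside the gene for a CpG-binding F-box protein, had 40.5, 38.5 and 28.3 in DMSO and 10.8, 14.8 and 11.7 in E. The E level was not well above background, so it was at least 2.36-fold lower (limma adjusted p = 6.8e-08; at least 2.53-fold after quantile normalization). MZF1-AS1 went from 122, 118 and 87.0 to 37.5, 48.3 and 45.8 and fell by 1.30 ± 0.16 (limma adjusted p = 7.7e-07; quantile value -1.41). IDI2-AS1 went from 94.3, 104 and 73.9 to 44.5, 50.1 and 44.1 and fell by 0.96 ± 0.14 (limma adjusted p = 2e-05; quantile value -1.08). For all 3 the lowest DMSO array lay above every E array, as their choice required. MORF4L2-AS1, whose partner encodes a chromatin protein of histone acetyltransferase complexes, went from 66.8, 55.2 and 46.2 to 25.8, 31.2 and 43.2 and fell by 0.77 ± 0.18 (limma adjusted p = 0.003; quantile value -0.94). SLCO4A1-AS1 had 48.9, 77.2 and 74.1 in E and fell by 0.76 ± 0.18 (limma adjusted p = 0.0024; quantile value -0.89).

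The effect of entinostat was also measured on top of dabrafenib plus trametinib, as DTE vs DT, which shares no array with E vs DMSO. On deposited values 6 members were higher in DTE than in DT and 149 lower, beside 4.51% and 71.4% of all genes past the level. After quantile normalization 31 were higher and 62 lower, beside 20.6% and 23.2%. On both scalings 6 were higher (2.73%) and 62 lower (28.2%), beside 4.51% and 23.2%. Of the 62, 4 had passed the level through 1 group alone. Members that passed through DT alone, such as ZEB2-AS1 and PPP1R26-AS1, had to have a lower mean in DTE than in DT. The 6 higher members were ATP2B1-AS1, CBR3-AS1, HIF1A-AS2, KCNJ2-AS1, POPDC1-AS1 and PTPRG-AS1, called on both scalings, and all 6 were also higher in E vs DMSO on both. They made up 13.6% of the 44 members higher in E vs DMSO on deposited values. After quantile normalization 15 members were higher in both, which was 57.7% of the 26 in E vs DMSO and 48.4% of the 31 in DTE vs DT. The same counts for lower members were 22 on deposited values, 95.7% of 23 and 14.8% of 149, and 38 after quantile normalization, 62.3% of 61 and 61.3% of 62. Across the 220 members the differences in the 2 settings had Pearson's r of 0.70 as deposited and 0.74 after quantile normalization. The members share the arrays and their levels, so this is a description.

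PTPRG-AS1 had 17.7, 17.9 and 23.5 in DT and 39.6, 40 and 39.3 in DTE, a rise of 1.02 ± 0.15 (limma adjusted p = 6.5e-06; quantile value 1.66). ATP2B1-AS1 had 33.1, 29.3 and 24.7 in DT and 47.0, 50.7 and 51.6 in DTE, a rise of 0.79 ± 0.14 (limma adjusted p = 4.2e-05; quantile value 1.44). KCNJ2-AS1 had 36.3, 33.7 and 36.4 in DT and 57.9, 52.1 and 75.3 in DTE, a rise of 0.78 ± 0.16 (limma adjusted p = 0.00027; quantile value 1.45). These RNAs rose while most members fell on the deposited scale. HIF1A-AS2, antisense to the gene for the hypoxia factor HIF-1 alpha, had 14.3, 15.8 and 15.3 in DMSO, 17.0, 15.4 and 16.1 in DT, 30.3, 23.7 and 24.3 in E and 22.8, 20.3 and 25.8 in DTE. It rose by 0.78 ± 0.14 in E vs DMSO (limma adjusted p = 0.00016; quantile value 0.44) and by 0.50 ± 0.14 in DTE vs DT (limma adjusted p = 0.0036; quantile value 0.96). Its DMSO and DT arrays lay close to the background level and its E and DTE arrays above it.

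RAB11B-AS1, which starts 331 bases inside a gene for a GTPase of recycling endosomes, had the largest fall in DTE vs DT. It went from 182, 184 and 128 in DT to 40.6, 48.2 and 38.4 in DTE and fell by 1.94 ± 0.17 (limma adjusted p = 5.5e-09; quantile value -1.27). MZF1-AS1 went from 82.6, 71.2 and 91.6 to 27.9, 31.4 and 25.4 and fell by 1.53 ± 0.16 (limma adjusted p = 5.5e-08; quantile value -0.999). VLDLR-AS1, high in DT, had 29.1, 29.1 and 32.9 in DTE and fell by 1.51 ± 0.15 (limma adjusted p = 3.5e-08; quantile value -0.94). FBXL19-AS1 had 31.9, 28.7 and 27.3 in DT and 9.86, 11.4 and 10.3 in DTE, again not well above background, and was at least 2.54-fold lower (limma adjusted p = 8.6e-08; at least 2.29-fold after quantile normalization). All 4 falls were called on both scalings, and the lack of overlap between their arrays was a condition of their choice.

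**Figure D2:**
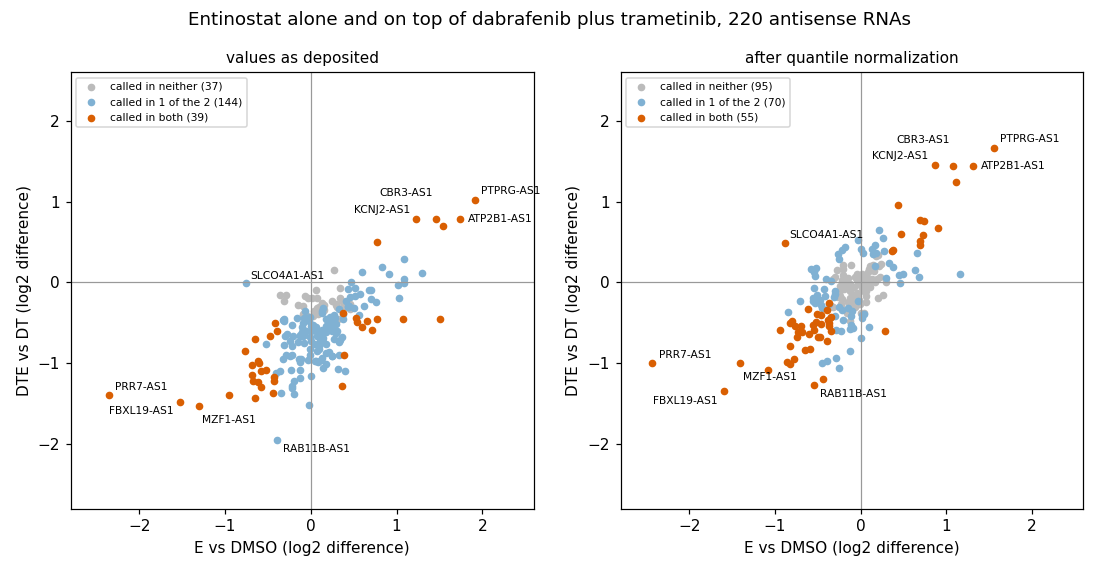
Log2 difference of each of the 220 antisense RNAs in E vs DMSO (x axis) and in DTE vs DT (y axis), as deposited (left) and after quantile normalization (right); each point is 1 RNA, coloured by how many of the 2 comparisons called it. PTPRG-AS1, ATP2B1-AS1, CBR3-AS1 and KCNJ2-AS1 lie at the upper right in both panels and PRR7-AS1, FBXL19-AS1 and MZF1-AS1 at the lower left, and on deposited values most points lie below 0 in DTE vs DT.

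Dabrafenib plus trametinib on top of entinostat, as DTE vs E, share no array with DT vs DMSO. On deposited values 1 member, VLDLR-AS1, was higher and 203 were lower, beside 0.0976% and 96.8% of all genes past the level, and 0.0976% were called higher on both scalings. The 13 members that had passed the level through E alone had to have a lower mean in DTE than in E. After quantile normalization 40 were higher and 13 lower, beside 13% and 13.6%, and 29 members were called lower as deposited and higher after it, so for those 29 the direction depends on the scaling. VLDLR-AS1 was at 29.1, 29.1 and 32.9 in DTE against 25.6, 22 and 24.3 in E, a difference of 0.34 ± 0.15 (limma adjusted p = 0.039; quantile value 1.27). Its call on deposited values was lost without E replicate 2 or 3 or without any 1 of the DTE arrays. Called lower on both scalings were 13 members, of which 1, PPP1R26-AS1, had passed the level through DT alone. They were 5.91% of the 220, beside 13.6% of all genes past the level. Among them GNAS-AS1, from the imprinted locus of a G protein subunit, went from 66.3, 86.2 and 87.8 in E to 24.6, 23.4 and 24.5 in DTE and fell by 1.72 ± 0.16 (limma adjusted p = 5.5e-09; quantile value -0.77). AFAP1-AS1 had 463, 472 and 528 in E and 139, 159 and 158 in DTE and fell by 1.68 ± 0.14 (limma adjusted p = 1e-09; quantile value -0.55). ATP2A1-AS1, antisense to a muscle calcium pump gene, went from 112, 131 and 135 to 32.6, 42.0 and 47.7 and fell by 1.64 ± 0.15 (limma adjusted p = 2.8e-09; quantile value -0.52). CPB2-AS1 had 17.6, 22.8 and 29.5 in E and 6.39, 8.72 and 8.88 in DTE and was at least 1.98-fold lower (limma adjusted p = 4.7e-08; at least 1.38-fold after quantile normalization).

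Calls in both DT vs DMSO and DTE vs E differed with the scaling. On deposited values 43 members were lower in both, 100% of the 43 in DT vs DMSO and 21.2% of the 203 in DTE vs E. After quantile normalization 29 were higher in both, 56.9% of 51 and 72.5% of 40, and 7 lower in both, 30.4% of 23 and 53.8% of 13. Those 7 were AFAP1-AS1, CPB2-AS1, FOXD2-AS1, GNAS-AS1, GNG12-AS1, IDI2-AS1 and ZNF143-AS1, and all 7 were also among the 43. Pearson's r across the 220 members was 0.66 as deposited and 0.69 after quantile normalization, again as a description.

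**Figure D3:**
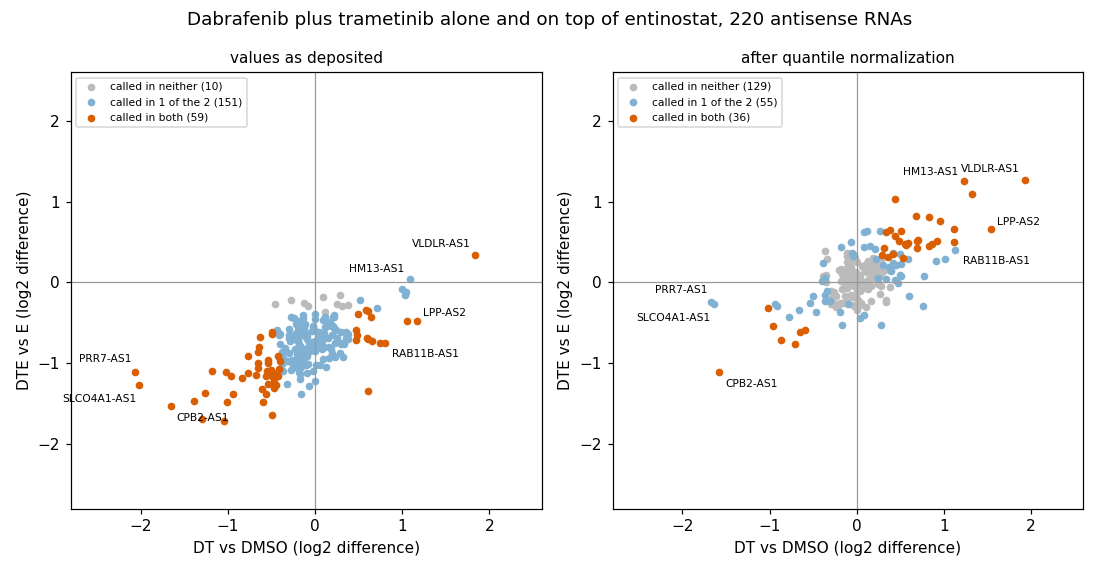
Log2 difference of each of the 220 antisense RNAs in DT vs DMSO (x axis) and in DTE vs E (y axis), as deposited (left) and after quantile normalization (right); each point is 1 RNA, coloured by how many of the 2 comparisons called it. Nearly all points lie below 0 in DTE vs E on deposited values, and VLDLR-AS1 lies above 0 in both panels.

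With all 3 agents 10 members were higher than in DMSO on deposited values and 164 lower, where 4.16% of all genes past the level were called higher and 80.1% lower. After quantile normalization 50 were higher and 58 lower, beside 25.7% and 28.8%. The same 10 and 58 members were called on both scalings (4.55% and 26.4%, beside 4.16% and 28.8% of all genes past the level), and 11 were lower as deposited and higher after quantile normalization. Of the 58, 4 had passed the level through 1 group alone, and the 1 member that passed through DMSO alone had to have a lower mean in DTE. The 10 were ATP2B1-AS1, CBR3-AS1, DLG5-AS1, HIF1A-AS2, HM13-AS1, KCNJ2-AS1, PAXBP1-AS1, POPDC1-AS1, PTPRG-AS1 and SCOC-AS1. Each of these was also called higher in E vs DMSO on both scalings, a comparison with the same DMSO arrays. ATP2B1-AS1 rose from 18.6, 19.4 and 18.9 in DMSO to 47.0, 50.7 and 51.6 in DTE, by 1.39 ± 0.14 (limma adjusted p = 6e-09; quantile value 2.13). HM13-AS1 rose from 32.4, 30.0 and 40.7 to 82.3, 80.03 and 63.7, by 1.14 ± 0.14 (limma adjusted p = 2.7e-07; quantile value 1.99). KCNJ2-AS1 rose by 1.07 ± 0.16 (limma adjusted p = 3.4e-06; quantile value 1.89).

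PRR7-AS1 was at 18.7, 18.8 and 26.4 in DTE, near the background level, and fell by 3.46 ± 0.16 against DMSO (limma adjusted p = 3.9e-13; quantile value -2.67), the largest difference of any member in any comparison. IDI2-AS1 went from 94.3, 104 and 73.9 to 18.7, 15.4 and 19.1 and fell by 2.34 ± 0.14 (limma adjusted p = 8.6e-12; quantile value -1.67). Its partner IDI2, an isopentenyl diphosphate isomerase gene, was not well above background in any group. ZNF143-AS1 went from 96.4, 99.6 and 76.3 to 19.4, 22.9 and 18.4 and fell by 2.16 ± 0.15 (limma adjusted p = 4.9e-11; quantile value -1.44). SLCO4A1-AS1 was at 22.9, 29.6 and 29.5, a fall by 2.03 ± 0.18 (limma adjusted p = 1.1e-09; quantile value -1.15). MZF1-AS1 fell by 1.94 ± 0.16 (limma adjusted p = 3.3e-10; quantile value -1.05), and TSPEAR-AS2 went from 193, 221 and 132 to 39.0, 55.9 and 49.6 and fell by 1.90 ± 0.18 (limma adjusted p = 4.8e-09; quantile value -0.85). All of these were lower in DTE than in either DT or E on group means, except SLCO4A1-AS1, whose mean was 27.4 in both DT and DTE.

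Whether the 2 treatments added up was asked by the interaction, the entinostat difference with dabrafenib plus trametinib minus that without. On deposited values 2 members were higher and 156 lower in it, beside 0.146% and 81.2% of all genes past the level, and the median over all genes was -0.63. After quantile normalization 5 were higher and 6 lower, beside 2.77% and 2.87%. On both scalings 2 members were higher and 6 lower, beside 0.117% and 2.87%. The 2 were PRR7-AS1, with 0.96 ± 0.23 (limma adjusted p = 0.0015; quantile value 1.43), and SLCO4A1-AS1, with 0.75 ± 0.25 (limma adjusted p = 0.014; quantile value 1.37). In each the measured fall with both treatments was smaller than the sum of the single falls. A fall of PRR7-AS1 in DTE could be followed only down to the background level there, 11.5. The part of this limit in its interaction was not tested. The 6 lower ones were BABAM2-AS1, HLA-F-AS1, LPP-AS2, PAXBP1-AS1, PPP1R26-AS1 and TNS2-AS1. Of these PPP1R26-AS1 had passed the level through DT alone and was below background in DTE, so its call was fixed in part by the choice of members. HLA-F-AS1 was at 46.5, 41.6 and 42.6 in DT and 32.4, 36.1 and 27.3 in DTE, a fall as deposited (quantile value of DTE vs DT 0.11), against its rise of 1.5 in E vs DMSO. Its interaction was -1.96 ± 0.26 (limma adjusted p = 1.8e-05; quantile value -1.05). LPP-AS2 was at 307, 313 and 339 in E and 224, 245 and 222 in DTE, with an interaction of -1.64 ± 0.18 (limma adjusted p = 2e-06; quantile value -0.88). PAXBP1-AS1 was at 24.1, 29.7 and 30.2 in DTE, below both single treatments, with an interaction of -1.52 ± 0.19 (limma adjusted p = 1e-05; quantile value -0.61). RAB11B-AS1 had -1.55 ± 0.24 (limma adjusted p = 5.5e-05), a call lost after quantile normalization (quantile value -0.73, limma adjusted p = 0.099).

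The members with the highest mean intensity over the 12 arrays were LPP-AS2, ZNF667-AS1, AFAP1-AS1, URB1-AS1, WAC-AS1 and FGD5-AS1, which ranks signals of different probe sets and not amounts of RNA. ZNF667-AS1 had 272, 295 and 256 in DMSO. It had 311, 297 and 323 in DT, and 443, 485 and 467 in E. On the DTE arrays it had 247, 279 and 259. It rose by 0.76 ± 0.13 in E (limma adjusted p = 7.1e-05; quantile value 0.69) and its DTE arrays overlapped those of DMSO. URB1-AS1, WAC-AS1 and FGD5-AS1 passed the threshold in neither DT nor E on deposited values, with differences from -0.18 to 0.20. After quantile normalization URB1-AS1 and WAC-AS1 were called higher in DT (quantile values 0.55 and 0.42). In DTE they had means of 203, 167 and 133 against 299, 275 and 294 in DMSO. For URB1-AS1 and WAC-AS1 the direction in DTE turned with the scaling: -0.55 and -0.71 as deposited, 0.50 and 0.36 after quantile normalization. For FGD5-AS1 the DTE difference was -1.15 as deposited (limma adjusted p = 4.1e-07) and -0.07 after quantile normalization.

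The sense partner was measured for 143 of the 220 members. On both scalings 5.59% of these partners were higher and 18.9% lower in DT, and 16.1% and 4.2% in E. All genes past the level had 5.7% and 19.5% in DT, and 18.1% and 6.48% in E. The counts of pairs that follow were not set against pairs of unrelated genes, so they are descriptions. In DT vs DMSO both were called on both scalings in 11 pairs, 3 higher, 6 lower and 2 in opposite directions. In E vs DMSO this held for 9 pairs, 6 higher, 1 lower and 2 opposite. On deposited values 26 antisense RNAs were called in DT without their partner and 28 partners without their antisense RNA, and 30 and 20 in E. Across pairs, Pearson's r between the log2 differences of antisense RNA and partner was 0.29 in DT vs DMSO (0.33 after quantile normalization) and 0.24 in E vs DMSO (0.23). For the 48 measured pairs with starts within 1000 bases it was 0.55 in DT and 0.32 in E on deposited values, and for the 59 with starts farther apart 0.15 and 0.25. The pairs share arrays, and whether these values differ was not tested.

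**Figure D4:**
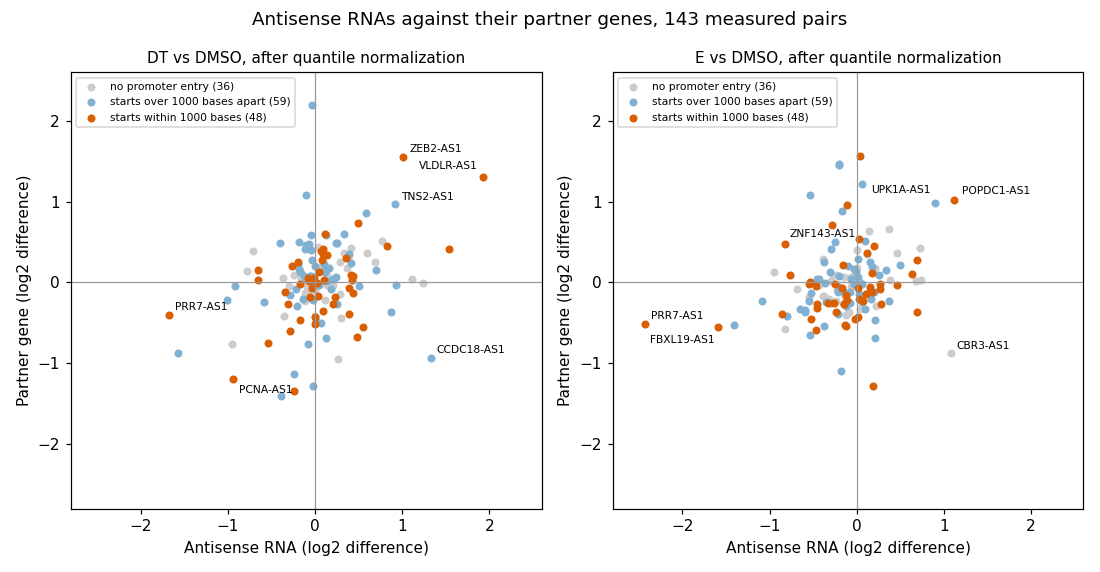
Log2 difference of the antisense RNA (x axis) and of its partner gene (y axis) in DT vs DMSO (left) and E vs DMSO (right), after quantile normalization; each point is 1 of 143 pairs, coloured by the distance between the 2 starts. VLDLR-AS1 and ZEB2-AS1 lie with their partners at the upper right in DT, POPDC1-AS1 and UPK1A-AS1 in E, and CCDC18-AS1 in DT and CBR3-AS1 in E lie at the lower right.

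The 3 pairs called higher together in DT were those of VLDLR, ZEB2 and TNS2, of which ZEB2-AS1 was chosen through that group. VLDLR had 71.0, 66.7 and 61.8 in DMSO and 140, 118 and 160 in DT, a rise of 1.05 ± 0.15 (limma adjusted p = 1e-05; quantile value 1.31). In E the pair parted: VLDLR rose to 102, 124 and 153, by 0.91 ± 0.15 (limma adjusted p = 7.5e-05; quantile value 0.70), while VLDLR-AS1 had a difference of -0.02. The antisense start lies 586 bases inside VLDLR. ZEB2-AS1 starts 505 bases inside ZEB2, the gene for a transcription factor of melanocyte differentiation, and is known for altering the splicing of its partner. It had 10.5, 11.9 and 9.38 in DMSO and 20.5, 23.2 and 19.5 in DT, and was below or near background on every array of DMSO, E and DTE. It was a member through DT alone, so its level there is a description that the choice of members fixed. ZEB2 had 85.4, 84.9 and 73.9 in DMSO and 206, 170 and 210 in DT, a rise of 1.26 ± 0.15 (limma adjusted p = 4.8e-07; quantile value 1.56). With entinostat added, ZEB2 was at 62.9, 72.9 and 70.0 and fell by 1.51 ± 0.15 against DT (limma adjusted p = 2.9e-08; quantile value -0.77). TNS2-AS1 and TNS2, the gene for a tensin of focal adhesions, rose in DT by 0.74 ± 0.15 and 0.78 ± 0.14 (limma adjusted p = 0.00061 and 0.00013; quantile values 0.91 and 0.96).

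The 6 pairs that fell together in DT were those of AFAP1, CPB2, LRP4, PCNA, SERTAD4 and TMEM51. In the CPB2 pair neither signal was well above background in DT, so the sizes of its falls are not measured. PCNA, the sliding clamp of DNA replication, had 447, 515 and 432 in DMSO and 166, 165 and 147 in DT, a fall by 1.54 ± 0.14 (limma adjusted p = 7.4e-09; quantile value -1.20). PCNA-AS1, which starts 372 bases inside it, went from 55.5, 52.2 and 51.4 to 30.0, 19.2 and 22.1 and fell by 1.18 ± 0.16 (limma adjusted p = 4.5e-06; quantile value -0.94). AFAP1, an actin filament protein gene, fell in DT by 1.10 ± 0.17 (limma adjusted p = 1.8e-05; quantile value -0.76), beside -1.30 for AFAP1-AS1. The LRP4 pair moved both ways: LRP4-AS1 fell by 0.48 ± 0.14 in DT and rose by 0.82 ± 0.14 in E (limma adjusted p = 0.0097 and 6.1e-05; quantile values -0.36 and 0.47). LRP4, the gene for a receptor of the low density lipoprotein receptor family, fell by 0.73 ± 0.15 in DT and rose by 0.54 ± 0.15 in E (limma adjusted p = 0.00048 and 0.0078; quantile values -0.42 and 0.37).

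The 6 pairs that rose together in E were those of FEZF1, LRP4, POPDC1, RASSF8, SCOC and UPK1A, of which FEZF1-AS1 had passed the level through E alone, and the pair of KANSL1, a subunit of a histone acetyltransferase complex, fell together. POPDC1, a gene for a cyclic AMP binding membrane protein, had 78.4, 71.3 and 70.0 in DMSO and 147, 169 and 191 in E, a rise of 1.20 ± 0.13 (limma adjusted p = 3e-07; quantile value 1.02). UPK1A had 29.6, 39.4 and 35 in DMSO and 73.4, 95.7 and 90.7 in E, a rise of 1.32 ± 0.15 (limma adjusted p = 3.6e-07; quantile value 0.99), close to the 1.30 of UPK1A-AS1. The UPK1A starts lie 6774 bases apart and the POPDC1 starts 530. SCOC-AS1 had 20.2, 24.7 and 21.8 in DMSO and 45.4, 49.3 and 46.9 in E, a rise of 1.09 ± 0.13 (limma adjusted p = 6e-07; quantile value 0.70), beside 0.55 ± 0.14 for SCOC (limma adjusted p = 0.0062; quantile value 0.28).

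On both scalings 2 pairs moved apart in DT vs DMSO, with the antisense RNA higher. In E vs DMSO 1 pair had the antisense RNA higher and 1 had it lower. In DTE vs DT CBR3-AS1 was higher and ENTPD3-AS1 lower, each opposite to its partner. By quantile values E vs DMSO had 2 such pairs with the antisense RNA higher and 4 with it lower, beside 6 both higher and 14 both lower. In DTE vs DMSO these counts were 6 and 5, beside 16 and 18. CBR3-AS1 rose in E, and CBR3 had 256, 272 and 231 in DMSO, 91.9, 108 and 103 in DT, 130, 151 and 164 in E and 34.2, 43.9 and 35.4 in DTE. CBR3 fell by 0.77 ± 0.14 in E (limma adjusted p = 0.00022; quantile value -0.88), by 2.75 ± 0.14 in DTE vs DMSO (limma adjusted p = 9.4e-13; quantile value -1.74) and by 1.42 ± 0.14 in DTE vs DT (limma adjusted p = 4.5e-08; quantile value -0.79). CBR3-AS1 rose in the same 3 comparisons, by 1.46, 0.92 and 0.79. On deposited values the log2 ratio of CBR3-AS1 to CBR3 within an array was higher than in DMSO by 2.23 in E and 3.67 in DTE, with no overlap between arrays. A constant factor per array leaves this ratio unchanged, but quantile normalization can change it. Such a ratio shows unequal change of the 2 signals and does not compare their amounts. ZNF143-AS1, which starts 314 bases upstream of the gene for a promoter-binding zinc finger protein, fell in E by 0.69 ± 0.15 (limma adjusted p = 0.0014; quantile value -0.83). ZNF143 went from 70.6, 70.5 and 55.3 to 90.4, 109 and 115 in E and rose by 0.68 ± 0.15 (limma adjusted p = 0.0015; quantile value 0.48). CCDC18 fell in DT by 1.28 ± 0.18 (limma adjusted p = 1e-05; quantile value -0.94) while CCDC18-AS1 rose by 1.05, with starts 165087 bases apart and no overlap of the spans. FGF14-AS2 rose in DT by 0.60 ± 0.16 (limma adjusted p = 0.0071; quantile value 0.87) while FGF14, close to background, had -0.37 ± 0.14 (limma adjusted p = 0.047; quantile value -0.37).

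For other leading members the partner moved less or did not pass the threshold. PRR7 fell in DT by 0.75 ± 0.18 on deposited values (limma adjusted p = 0.003; quantile value -0.40, not called) and had -0.37 ± 0.18 in E, beside -2.06 and -2.35 for PRR7-AS1. The within-array log2 ratio of PRR7-AS1 to PRR7 on deposited values changed against DMSO by -1.31 in DT, -1.98 in E and -1.80 in DTE, with no overlap between arrays. FBXL19 had -0.34 ± 0.16 in E (limma adjusted p = 0.11; quantile value -0.55), MZF1 -0.30 ± 0.17 (limma adjusted p = 0.24; quantile value -0.53), and LPP 0.23 ± 0.16 in DT (limma adjusted p = 0.33; quantile value 0.42). After quantile normalization these 3 partners were called, in the direction of their antisense RNA.

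**Figure D5:**
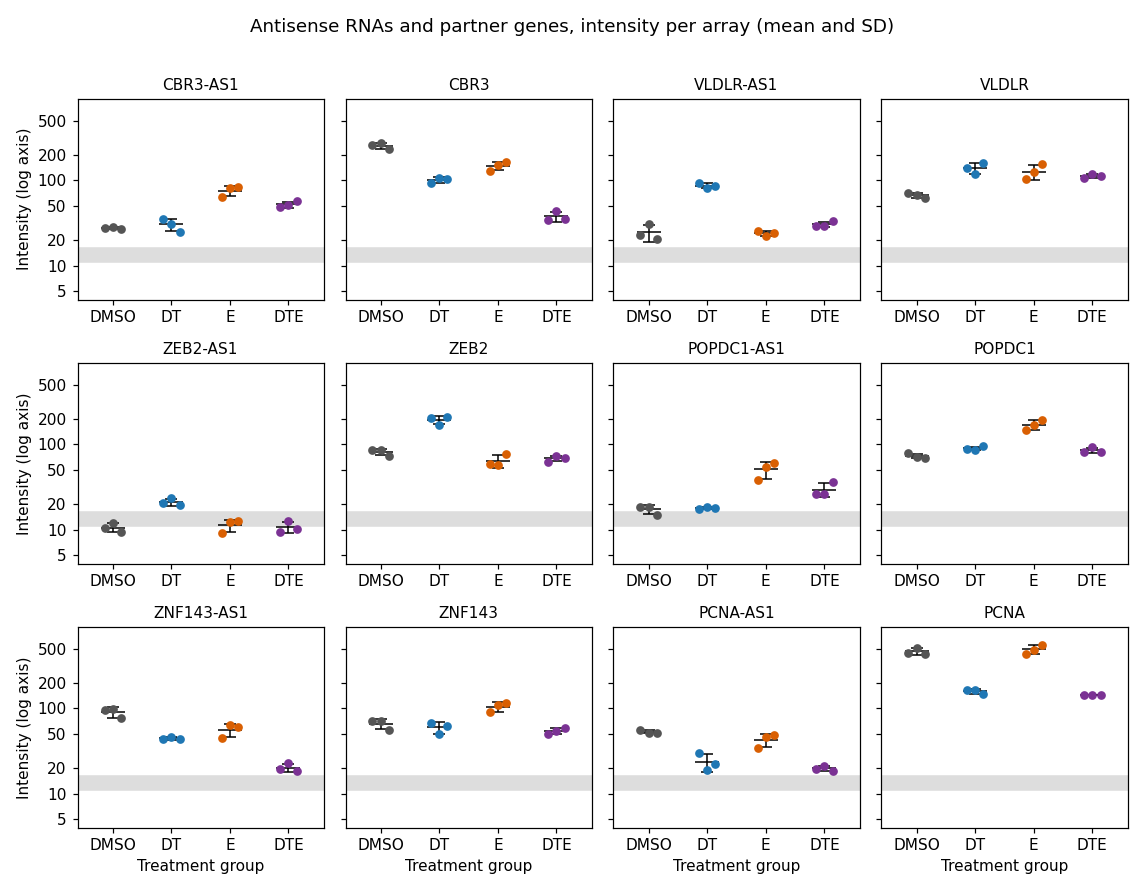
Intensity on each array (log axis) of 6 antisense RNAs and their partner genes, by treatment group; points are arrays, black lines the mean and SD of 3 arrays, and the grey band the range of the background level, 11.1 to 16.1. CBR3 is lowest and CBR3-AS1 raised in DTE, VLDLR rises in DT with its antisense RNA, ZEB2 rises in DT, and ZEB2-AS1 leaves the background level there alone, through which it became a member.

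Other genes around antisense RNA were taken as lists. Of 14 measured genes of the RNA exosome and its nuclear adaptors, 11 were lower in DT on deposited values and none higher (median -0.76), and after quantile normalization 9 were lower and 1, EXOSC10, higher (median -0.40), where 32.1% and 19.6% of all genes past the level were lower. All genes past the level had medians of -0.23 and 0.01 there. EXOSC8 went from a mean of 92.4 ± 12.7 to 36.2 ± 2.08 (SD, n = 3) and fell by 1.34 ± 0.14 (limma adjusted p = 1.2e-07; quantile value -0.98). In E 5 were lower and none higher (median -0.16), and 7 were lower after quantile normalization (median -0.27), beside 6.49% and 21.6%. In DTE all 14 were lower on deposited values and 10 after quantile normalization, with 0 higher, beside 80.1% and 28.8% of all genes past the level lower. The part of these genes in the changes of the antisense RNAs was not tested. Of the class I histone deacetylases, HDAC1 and HDAC3 rose in E by 0.51 ± 0.15 and 0.52 ± 0.14 (limma adjusted p = 0.012 and 0.0079; quantile values 0.41 and 0.43). HDAC2 was called on deposited values alone, and HDAC8 had 0.21. Of 5 measured genes for proteins that bind or process double-stranded RNA, 1, the RNA sensor gene RIGI, rose in E on both scalings (0.85 ± 0.15, limma adjusted p = 0.00018; quantile value 0.59), with means of 51.2 ± 4.91 in DMSO and 93.4 ± 21.6 in E (SD, n = 3). Beside HDAC1, HDAC3 and RIGI, 18.1% of all genes past the level were higher in E on both scalings. After quantile normalization 3 of the 5 were lower in E, DGCR8 (-0.48), TARBP2 (-0.45) and IFIH1 (-0.34), beside 21.6% of all genes past the level. None of the 3 was called on deposited values. In DTE all 5 were lower on deposited values, beside 80.1% of all genes past the level. After quantile normalization 4 were lower and 1 higher, beside 28.8% and 25.7%.

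Long intergenic RNAs, a similar class of non-coding genes, had 16 of 156 members higher and 16 lower in DT on both scalings (10.3% each), and 21 higher and 12 lower in E (13.5% and 7.69%). The antisense RNAs had 10% and 10.5% in DT and 11.4% and 10.5% in E. Whether the shares differ was not tested. The antisense RNAs that rose in E on both scalings had 23 promoter windows in the table, with a median of 25 CpG dinucleotides, and those that fell 21 windows with a median of 13. GC boxes stood in 17 of the 23 and 9 of the 21. This direction was not particular to E. In DT vs DMSO the higher members had a median of 24.5 and the lower 19, with GC boxes in 12 of 18 and 11 of 23 windows. In DTE vs DT the medians were 26.5 and 18. Over all member windows the median was 23, with GC boxes in 54.4%. Of the 79 antisense RNAs with a start near that of their partner 10 rose and 8 fell in E on both scalings, and of the 82 with starts farther apart 7 rose and 10 fell.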

How the data were processed

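SK-MEL-2 RNA had been measured on 12 Affymetrix arrays, 3 for each treatment. The deposited values are linear intensity per probe set, for which the submitters' processing notes name RMA and the Transcriptome Analysis Console, with no version. The platform annotation gave a single gene for 14750 of 29398 probe sets, and the other 14648 were left out. Each of 14582 genes was read from its brightest probe set by the 12-array mean, and intensities ran from 2.345 to 8595. Samples were grouped by their labels. Members and lists were chosen with earlier results of these data known.

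Limma 3.58.1 in R 4.3.3 was fitted to log2 of the deposited intensity, with no pseudocount and 1 mean per group over all 12 arrays, so that the groups share an estimate of the spread. P-values were adjusted by Benjamini-Hochberg over all genes of a comparison, with a threshold of 0.05. As background level of an array served percentile 95 among its dimmest 25% of genes. Where a group was at or under it, a fold is given as a bound against that level. In simulated data of the E vs DMSO comparison over 14582 genes, 34% of genes changed by 0.5 (log2) and 100% of those changed by 1 were called, with 6 false calls among 14382. The simulation drew independent noise for each gene and array, with 100 genes changed by each amount and no array-wide difference in level. The arrays measured here did differ in overall level, so these rates do not carry over to them. Quantile normalization, median centring (added after seeing the data), a filter on dim genes, a replicate block, trended robust variances and leaving out each array were tried. Same-numbered arrays deviated together (r over 0.1) in 2 of 18 pairs (range -0.22 to 0.13), so the numbers were not taken to pair the arrays.

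Genes described one by one are, for DT, E and DTE vs DMSO, the 6 largest rises and falls past the threshold without overlap between arrays. For DTE vs DT, DTE vs E and the interaction they are the 4 largest, and the 6 members of highest mean intensity, the partners of all these and the genes next to the level threshold were added. Others named were chosen after their values were seen. Python 3.11.15, pandas 2.3.3 and matplotlib 3.10.9 were used for tables and plots.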

Additional observations from a re-analysis of the deposited data

Results flagged for a closer look

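By the interaction term of limma, the effect of entinostat with dabrafenib plus trametinib differed from its effect without them for 2 members upward and 156 downward on deposited values, beside 0.146% and 81.2% of all genes past the level. Given here are the 8 called on both scalings (2 upward and 6 downward, beside 0.117% and 2.87%) and RAB11B-AS1, among the largest on deposited values. The log2 interaction was 0.96 ± 0.23 for PRR7-AS1 and 0.75 ± 0.25 for SLCO4A1-AS1. It was -1.96 ± 0.26 for HLA-F-AS1, -1.64 ± 0.18 for LPP-AS2, -1.55 ± 0.24 for RAB11B-AS1, -1.52 ± 0.19 for PAXBP1-AS1, -1.50 ± 0.22 for TNS2-AS1 and -1.39 ± 0.19 for BABAM2-AS1. The fitted value of PPP1R26-AS1, -1.16, is no measured size, because its DTE arrays were below the background level and it was a member through DT alone. For PRR7-AS1 the background level also limits how far a fall in DTE could be followed. The median interaction over all genes was -0.63 as deposited and 0.00 after quantile normalization. After quantile normalization the values were 1.43 for PRR7-AS1, 1.37 for SLCO4A1-AS1, -1.05 for HLA-F-AS1, -0.88 for LPP-AS2, -0.61 for PAXBP1-AS1, -0.65 for TNS2-AS1, -0.69 for BABAM2-AS1 and -0.81 for PPP1R26-AS1, all still called. RAB11B-AS1 had -0.73 and was no longer called.

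BABAM2-AS1 had 28.6, 26.3 and 26.4 in DMSO, 43.2, 36.9 and 48.9 in DT, 32.3, 33.9 and 35.1 in E and 20.7, 19.0 and 21.4 in DTE. Its DTE arrays were the lowest of all 12. PPP1R26-AS1 had 22, 22.5 and 17.6 in DT and 8.52, 9.83 and 9.31 in DTE.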

How the results depend on the processing

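The counts of called antisense RNAs moved most with the scaling of the arrays. After quantile normalization the counts higher and lower were 51 and 23 in DT vs DMSO, 26 and 61 in E vs DMSO, 50 and 58 in DTE vs DMSO, 31 and 62 in DTE vs DT, 40 and 13 in DTE vs E, and 5 and 6 in the interaction. With median centring, 56 were higher in DT vs DMSO, 25 higher and 76 lower in E vs DMSO, 56 and 63 in DTE vs DMSO, 23 and 67 in DTE vs DT, 65 and 18 in DTE vs E, and 17 and 11 in the interaction. With only genes above the median gene, which tests fewer members, 14 were higher in DT vs DMSO, 22 higher in E vs DMSO, 6 higher and 80 lower in DTE vs DMSO, 78 lower in DTE vs DT, 96 lower in DTE vs E and 80 lower in the interaction. The replicate block and the trended robust variances each left 0 higher in DTE vs E. The block otherwise kept the counts within 1.5 times and the calls of 54 of 55 values of named antisense RNAs. Leaving out 1 array gave 19 to 25 higher and 26 to 53 lower in DT vs DMSO, 28 to 60 and 11 to 28 in E vs DMSO, 7 to 11 and 150 to 170 in DTE vs DMSO, 6 and 128 to 156 in DTE vs DT, 0 to 1 and 192 to 209 in DTE vs E, and 1 to 2 and 133 to 175 in the interaction, where 1 was left without DMSO replicate 2. Of the named antisense RNA values 54 of 55 kept their call after quantile normalization and all 55 with median centring. Of 38 partner values 24 kept theirs after quantile normalization, 6 lost and 4 gained a call and 4 reversed, and with median centring 26, 3, 5 and 4. The direction turned for VLDLR in DTE vs DT (quantile 0.44) and DTE vs E (quantile 1.04, median centring 0.78), CPB2 in DTE vs E (median centring 0.32), ZNF143 in DTE vs DMSO (0.71 and 0.39) and GNAS in DTE vs E (0.30 and 0.19). The cause was not tested. Fitting only the groups compared is the same fit for the interaction and was not run there. Signals near the background level limit what can be said of dim members.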
